A study of Mus musculus with 12 samples.

Results

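The genes described here are the ligands and receptors of axon guidance in mouse dorsal root ganglia (DRG), where the cell bodies of sensory neurons sit beside the spinal cord. They were chosen by gene name alone, as all rows of the deposited table named as semaphorins of classes 3 to 7, plexins, neuropilins, Eph receptors, ephrins, Slits, Robos, netrins, Unc5 receptors or Dcc. This gave 69 of the 44345 genes in the table: 7 class 3 semaphorins, 13 other semaphorins, 11 neuropilins and plexins, 14 Eph receptors, 8 ephrins, 7 Slits and Robos, and 9 netrins, Unc5 receptors and Dcc. Expression was above the limit for testing in 65 of them.

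RNA came from L4 to L6 DRG of C57BL/6 mice aged 6 to 8 weeks, and each library was a pool of the DRG of 2 mice. The 4 groups had 3 libraries each. In the vehicle group mice received phosphate-buffered saline by daily gavage for 10 days, and in the IPA group they received indole-3-propionic acid, a tryptophan product of gut bacteria, at 20 mg/kg on the same schedule. The vehicle with crush and IPA with crush groups had the same 10 days of gavage, then a crush of the sciatic nerve, and their DRG were taken 3 days later. IPA dosing went on through those 3 days; whether vehicle dosing did is not clear from the labels, so the injured IPA mice differed from the uninjured ones by 3 more days of dosing as well as by the crush. All groups share the strain and age range, and no transgene or sex is given.

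Axon guidance genes encode cues that steer growing axons and the receptors that read them. Semaphorins signal mostly through plexins, with neuropilins as co-receptors for most of the secreted class 3 members. Ephrins are held on the cell surface and bind Eph receptor tyrosine kinases on neighbouring cells, Slits bind Robo receptors, and netrins bind Dcc and Unc5 receptors. Many of these genes stay on in adult sensory ganglia, where neurons, glia, vessels and connective tissue cells can each express them, and peripheral nerve injury puts sensory neurons back into a growth state.

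Values are the deposited levels on a scale of read counts scaled to library size (CPM-like, written CPM below), and 1 read was worth 0.0130 to 0.0199 of these units in libraries of 40938034 to 62501969 reads recovered from the table. The values of a library sum to 803444 to 818767, so they were scaled to a total larger than the reads in the table, and what that total holds is not given in the sources used here. A change is a difference in log2(CPM + 0.5) with its standard error from a limma model of all 12 libraries, and a gene counted as passing when its Benjamini-Hochberg p, adjusted over all 15603 tested genes, was under 0.05. The crush left a clear mark in every injured library: a set of 7 known injury genes that includes Atf3 and Gap43 summed to 267 to 324 CPM in the uninjured vehicle libraries and to 2292 to 2556 CPM in the injured ones, and 7 of 7 rose. Replicate 1 of vehicle with crush stood apart from its group, with a chi-square per degree of freedom of 28.3 and 25.9 against its replicates and 5.70 between those. Replicate 3 of IPA with crush (24.1 against replicate 1, with 7.17 between the others) and replicate 3 of vehicle (10.7 and 17.5) also stood apart from theirs, and the results below were computed without each of these as well. The labels describe each replicate as its own pool of mice. In a whole ganglion, fewer cells of a type and less RNA per cell cannot be told apart.

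Several guidance genes were already strongly expressed in the uninjured ganglion. Per kb of the longest annotated transcript, the highest mean levels in vehicle libraries were 46.0 CPM per kb for Sema3b, 42.1 for Plxnc1, 33.5 for Sema7a, 30.9 for Sema4f, 24.3 for Plxnd1, 21.5 for Robo2 and 21.4 for Slit1. The library ranges of Sema3b and Plxnc1 overlapped, as did those of Sema7a and Sema4f and those of Robo2 and Slit1, so these neighbours in the order were not separated by their spread. A semaphorin and its receptor, Sema7a and Plxnc1, were thus both among the most abundant members per kb. Among Eph receptors, Ephb6, which lacks kinase activity, had the highest mean at 11.1 CPM per kb, and Epha3 had 0.268 CPM per kb. After crush under vehicle the order changed at the top. Sema4f moved from rank 4 to rank 1 of 68 members with a known transcript length, at 61.9 CPM per kb, and Sema6a moved from rank 39 to rank 5, from 2.00 to 22.8 CPM per kb. Sema7a moved from rank 3 to rank 8, at 17.3 CPM per kb.

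**Figure D1:**
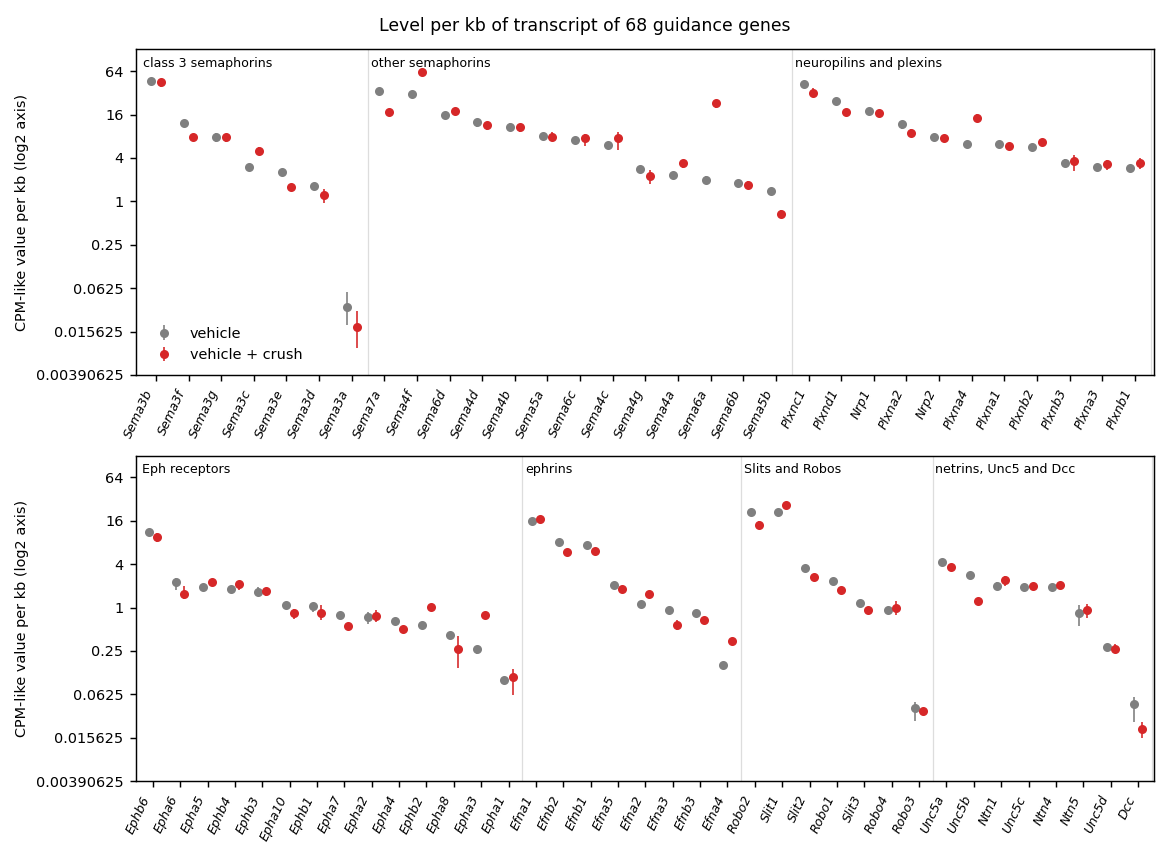
Level per kb of transcript (CPM per kb, log2 axis) of the 68 members with an annotated transcript, in vehicle and vehicle with crush libraries; points are means of 3 libraries and bars run from the lowest to the highest library. Sema6a shows the widest gap between the groups, from 2.00 to 22.8 CPM per kb, and Sema4f is highest after crush at 61.9.

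Of the 69 genes, 4 stayed below the limit for testing, which was 0.5 CPM in at least 3 libraries. Sema3a, a secreted cue that collapses growth cones of sensory axons, was at 0.0545 to 0.322 CPM. Dcc, the netrin receptor of attraction, was at 0.159 to 0.597 CPM, Robo3 at 0.127 to 0.362 CPM and Epha1 at 0.151 to 0.460 CPM. Dcc had 0.597, 0.550 and 0.265 CPM in vehicle and 0.159, 0.218 and 0.265 CPM in vehicle with crush libraries, on 8 to 31 reads per library. It was called lower after crush under vehicle when no limit on low values was set. Efna4 passed the limit through the injured libraries, since its uninjured levels were 0.232 to 0.302 CPM.

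Crush moved guidance genes in both directions. Under vehicle, 13 of 65 tested members rose (20.0%, against 23.6% of all tested genes) and 22 fell (33.8%, against 24.4%), or 35 in all against 48.0%. The injured and uninjured libraries did not overlap in 36 members, against 51.4% of all tested genes. Of these members, 13 were higher (against 25.4% of all tested genes) and 23 lower (against 26.0%) after crush. The median change of the members was -0.04, and that of all tested genes was -0.005. Of the 65 tested members, 4 passed with a rise of at least 1 on the log2 scale, against 3.39% of all tested genes. These were Sema6a, Epha3, Plxna4 and Sema4f. A fall of at least that much was called in 1, Unc5b, against 0.667% of all tested genes. Under IPA, 12 rose (18.5%, against 21.2%) and 22 fell (33.8%, against 22.5%), or 34 in all against 43.6%. The libraries did not overlap in 38 members (against 58.0% of all tested genes), 13 of them higher (against 27.2%) and 25 lower (against 30.8%). By at least 1 on the log2 scale, Sema6a, Plxna4 and Epha3 rose, against 2.97% of all tested genes, and Sema5b fell, against 0.487%. Under both treatments, 12 members rose (18.5%, against 19.1% of all tested genes) and 19 fell (29.2%, against 19.4%), and 0 were called in opposite directions. Efna4, which reached the limit for testing through the injured libraries, is among the risers; without it 12 rose under vehicle and 11 under IPA. Without replicate 1 of vehicle with crush, 18 rose under vehicle (27.7%, against 26.1% of all tested genes in that fit) and 19 fell (29.2%, against 27.2%), so both shares were then near those of all genes. Without replicate 3 of vehicle, 11 rose (16.9%, against 23.8%) and 20 fell (30.8%, against 23.4%), and under IPA without replicate 3 of IPA with crush 11 rose (16.9%, against 19.7%) and 19 fell (29.2%, against 22.1%). Of the members called with all libraries, 12 of 13 risers and 19 of 22 fallers were called without replicate 1 of vehicle with crush too; Epha5, Epha8, Epha10 and Sema4g were not, while Ephb4, Ntn1, Plxna3, Plxnb1, Sema4c and Sema6c were added as risers.

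**Figure D2:**
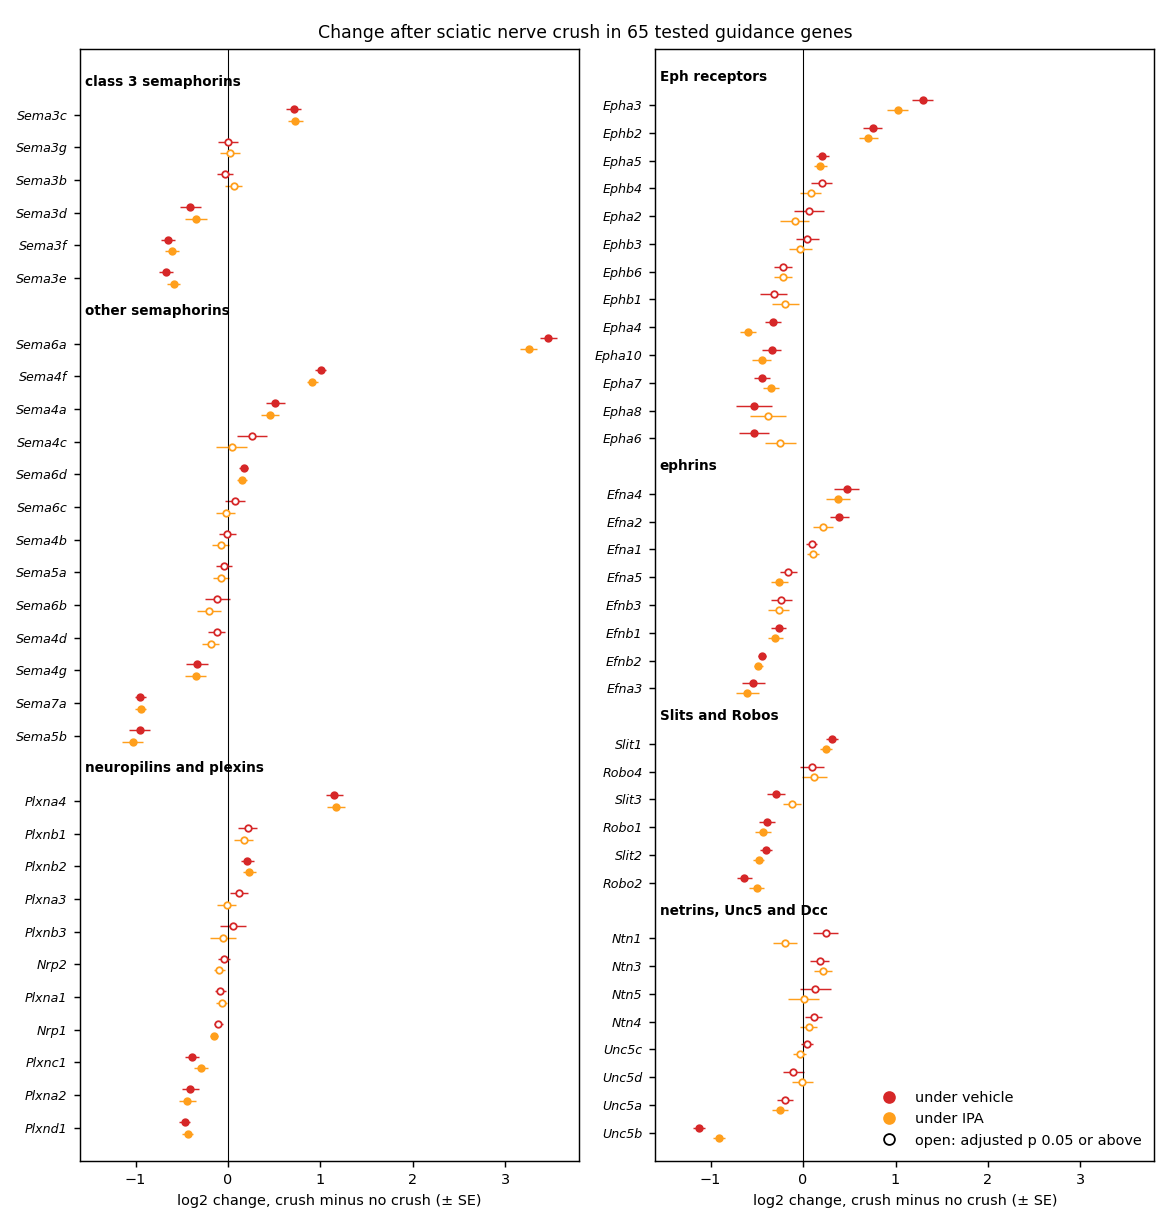
Change after sciatic crush (log2, ± SE) of the 65 tested members by role, under vehicle (red) and under IPA (orange), each from 3 against 3 libraries; filled points passed at an adjusted p under 0.05. Both treatments give nearly the same value for most members, with Sema6a far to the right at 3.46 and 3.25 and Unc5b lowest under vehicle at -1.12.

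Promoter sequences were looked up for the guidance genes, and the table of RefSeq promoters (GRCm38.p6) held 75 promoters for 59 of the 69 members. Shown are the 250 bases before the start of 2 members that rose and 2 that fell, picked after their values were seen among members with an entry because their changes were large, and their CG content is set side by side; capitals mark each CG dinucleotide and each sequence reads 5′ to 3′ along its gene.
Sema4f, rose, chr6:82939770-82940019, minus strand: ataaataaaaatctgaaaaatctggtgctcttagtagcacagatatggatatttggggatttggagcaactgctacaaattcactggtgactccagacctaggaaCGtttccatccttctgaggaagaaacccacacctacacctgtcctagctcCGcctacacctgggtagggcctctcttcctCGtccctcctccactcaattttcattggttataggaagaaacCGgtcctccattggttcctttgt
Epha3, rose, chr16:63864176-63864425, minus strand: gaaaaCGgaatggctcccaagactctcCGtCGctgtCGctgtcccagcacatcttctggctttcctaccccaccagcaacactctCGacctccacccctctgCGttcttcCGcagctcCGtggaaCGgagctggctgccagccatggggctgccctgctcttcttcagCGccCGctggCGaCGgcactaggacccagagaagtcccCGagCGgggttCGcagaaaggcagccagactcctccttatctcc
Sema7a, fell, chr9:57939862-57940111, plus strand: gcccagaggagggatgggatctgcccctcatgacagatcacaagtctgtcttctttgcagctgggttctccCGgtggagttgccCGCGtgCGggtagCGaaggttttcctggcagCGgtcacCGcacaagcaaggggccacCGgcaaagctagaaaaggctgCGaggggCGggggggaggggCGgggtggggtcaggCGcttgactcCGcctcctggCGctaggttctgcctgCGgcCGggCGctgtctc
Unc5b, fell, chr10:60831582-60831831, minus strand: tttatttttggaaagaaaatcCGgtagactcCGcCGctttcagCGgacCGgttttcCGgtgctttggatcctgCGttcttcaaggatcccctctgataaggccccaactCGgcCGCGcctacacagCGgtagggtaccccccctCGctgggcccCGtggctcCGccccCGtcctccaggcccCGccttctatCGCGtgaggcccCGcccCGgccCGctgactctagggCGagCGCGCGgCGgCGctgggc

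The Sema4f sequence holds 4 CG dinucleotides, Epha3 16, Sema7a 17 and Unc5b 27. Over the same 250 bases the median was 15 in member promoters and 6 in all 32851 promoters of the table. The sites of AP-1 and CREB/ATF factors were also searched on both strands of the full windows, because Atf3 and Jun, factors of those families, are among the injury genes that rose. TGANTCA was found in 3 of 75 member promoters (Sema4c, Sema4d and Sema6b), against 7.81% of all promoters. TGACTCA or TGAGTCA, which are among the TGANTCA matches, were found in 2, against 5.20%. TGACGTCA was found in 1 (Epha2), against 1.79%. None of these 4 genes rose or fell after crush under vehicle with all libraries.

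Among the secreted class 3 semaphorins, 1 rose and 3 fell after crush under vehicle, of 6 tested, and under IPA the counts were the same (of all tested genes, 23.6% rose and 24.4% fell under vehicle, and 21.2% and 22.5% under IPA). Sema3c (chr5:17574281-17730268, GRCm38) had 15.8, 18.1 and 16.1 CPM in vehicle and 31.1, 24.3 and 27.6 CPM in vehicle with crush libraries. Its levels were 15.4, 14.6 and 15.5 CPM in IPA and 24.7, 25.1 and 26.7 CPM in IPA with crush libraries. Every injured library was above every uninjured one, with a change of 0.71 ± 0.08 under vehicle (adjusted p 8.36e-06) and 0.73 ± 0.08 under IPA. The other direction was taken by Sema3e, which binds Plxnd1 without needing a neuropilin. Its levels were 17.6, 19.2 and 16.4 CPM in vehicle and 11.7, 10.1 and 11.0 CPM after crush, and 15.9, 15.5 and 17.1 CPM in IPA and 10.5, 10.4 and 10.8 CPM after crush. The groups did not overlap under either treatment, and Sema3e fell by 0.67 ± 0.07 under vehicle (adjusted p 5.72e-06) and by 0.59 ± 0.07 under IPA. Sema3f, a ligand that prefers Nrp2, went from 41.5, 40.5 and 43.8 CPM to 23.2, 27.5 and 29.2 CPM under vehicle and from 44.4, 47.3 and 45.7 CPM to 31.8, 30.1 and 28.1 CPM under IPA. Sema3f fell by 0.65 ± 0.08 under vehicle (adjusted p 8.81e-06), again with no overlap. Sema3d went from 9.87, 10.7 and 9.96 CPM to 9.49, 6.03 and 7.49 CPM under vehicle and from 8.46, 8.21 and 8.37 CPM to 6.08, 6.40 and 6.91 CPM under IPA. Its changes of -0.41 ± 0.12 (adjusted p 0.0115) and -0.35 ± 0.12 (adjusted p 0.0282) passed, but the first was lost without replicate 2 of vehicle with crush (adjusted p 0.0523), and the second without any replicate of IPA or without replicate 1 or 2 of IPA with crush (adjusted p 0.0564 to 0.0902). Sema3b and Sema3g did not pass, at changes of -0.03 ± 0.09 and -0.00 ± 0.11 under vehicle.

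The membrane-bound semaphorins held the member with the largest change. Sema6a, a transmembrane ligand of Plxna2 and Plxna4, had 11.9, 13.9 and 15.3 CPM in vehicle and 134, 163 and 172 CPM in vehicle with crush libraries. Its levels were 14.8, 15.9 and 14.7 CPM in IPA and 148, 152 and 145 CPM in IPA with crush libraries. The lowest injured library thus lay far above the highest uninjured one, and the mean level rose 11.4 times under vehicle and 9.81 times under IPA. On the log2 scale the changes were 3.46 ± 0.09 (adjusted p 3.00e-12) and 3.25 ± 0.09 (adjusted p 6.39e-12). Its class 6 relative Sema6d also rose, by 0.17 ± 0.05 and 0.15 ± 0.05, a small change whose call under vehicle was lost without replicate 3 of vehicle, and under IPA without replicate 2 or 3 of IPA or replicate 3 of IPA with crush. Sema6b and Sema6c had changes of -0.11 ± 0.13 and 0.07 ± 0.11 under vehicle and did not pass with all libraries.

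Class 4 gave another abundant riser. Sema4f (chr6:82911885-82939769) had 120, 121 and 138 CPM in vehicle and 233, 267 and 259 CPM in vehicle with crush libraries, and 135, 136 and 133 CPM in IPA and 261, 255 and 247 CPM in IPA with crush libraries. All injured libraries lay above all uninjured ones, and the change was 1.00 ± 0.06 under vehicle (adjusted p 1.08e-08) and 0.91 ± 0.06 under IPA (adjusted p 3.26e-08). Sema4a rose from a mean of 7.54 ± 0.478 to 11.0 ± 1.46 CPM (SD, n = 3) under vehicle, a change of 0.51 ± 0.10. Sema4g fell by 0.34 ± 0.11 under vehicle, a call lost without replicate 1 or 2 of vehicle or replicate 1 of vehicle with crush. Sema4b, Sema4c and Sema4d did not pass with all libraries, at changes of -0.01 ± 0.09, 0.26 ± 0.16 and -0.12 ± 0.09. Shared exon bases with a gene on the opposite strand made up 7.27% of those of Sema4c, and the counting setting for strand is not given in the sources used here.

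Sema7a and Sema5b were the semaphorins that fell most. Sema7a (chr9:57940112-57962865), a lipid-anchored ligand of Plxnc1 and integrins, had 106, 109 and 116 CPM in vehicle and 53.7, 59.7 and 57.3 CPM in vehicle with crush libraries. Its levels were 109, 118 and 117 CPM in IPA and 62.9, 60.0 and 55.5 CPM in IPA with crush libraries. The highest injured library was far below the lowest uninjured one under each treatment, and Sema7a fell by 0.95 ± 0.06 under vehicle (adjusted p 1.97e-08) and by 0.94 ± 0.06 under IPA (adjusted p 2.50e-08). Sema5b, a transmembrane semaphorin with thrombospondin repeats, went from 6.63, 6.43 and 6.40 CPM to 2.90, 2.90 and 3.53 CPM under vehicle and from 7.81, 6.81 and 7.56 CPM to 3.65, 3.77 and 2.73 CPM under IPA. Neither pair of groups overlapped, and Sema5b fell by 0.96 ± 0.11 (adjusted p 8.25e-06) and by 1.03 ± 0.11 (adjusted p 4.57e-06). Sema5a, the other class 5 member, was at 87.3 ± 5.69 and 85.2 ± 12.6 CPM (SD, n = 3) and did not pass.

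Of the 11 neuropilins and plexins, the semaphorin receptors, 2 rose and 3 fell under vehicle (18.2% and 27.3%, near the 23.6% and 24.4% of all tested genes). The 4 A-type plexins split. Plxna4 (chr6:32144268-32588192), which carries Sema3a and Sema6a signals in sensory neurons, had 86.8, 85.7 and 71.9 CPM in vehicle and 208, 161 and 177 CPM in vehicle with crush libraries. Its levels were 67.7, 64.0 and 67.9 CPM in IPA and 167, 149 and 136 CPM in IPA with crush libraries. No injured library reached down to an uninjured one, and the change was 1.15 ± 0.10 under vehicle (adjusted p 3.67e-07) and 1.17 ± 0.10 under IPA (adjusted p 3.63e-07). Plxna2, the other main receptor of Sema6a, went from 141, 141 and 112 CPM to 109, 89.8 and 96.4 CPM under vehicle and from 123, 113 and 109 CPM to 88.9, 83.9 and 81.4 CPM under IPA. It fell by 0.41 ± 0.09 (adjusted p 0.00208) and by 0.44 ± 0.09, with groups that did not overlap but lay close under vehicle. So among the ligand and receptors of this branch, Sema6a and Plxna4 rose and Plxna2 fell. Plxna1 and Plxna3 did not pass with all libraries, at -0.08 ± 0.06 and 0.12 ± 0.10. Of the exon bases of Plxna1, 10.7% are shared with an antisense gene.

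The receptors of Sema7a and Sema3e fell along with their ligands. Plxnc1 had 311, 319 and 292 CPM in vehicle and 273, 216 and 219 CPM in vehicle with crush libraries, and 292, 274 and 283 CPM in IPA and 226, 233 and 234 CPM in IPA with crush libraries. Replicate 1 of vehicle with crush was the highest injured library, still below all uninjured ones. Plxnc1 fell by 0.39 ± 0.07 under vehicle (adjusted p 0.000633) and by 0.29 ± 0.07 under IPA (adjusted p 0.00556). Plxnd1 went from 166, 167 and 169 CPM to 116, 122 and 126 CPM under vehicle and from 179, 182 and 167 CPM to 138, 136 and 117 CPM under IPA. Again no injured library reached an uninjured one, and Plxnd1 fell by 0.47 ± 0.06 (adjusted p 2.63e-05) and by 0.44 ± 0.06. Plxnb2, a receptor of class 4 semaphorins, rose by 0.21 ± 0.07 and 0.23 ± 0.07, a change lost under vehicle without replicate 2 of vehicle or replicate 2 or 3 of vehicle with crush. Nrp1 and Nrp2 had 66.0 ± 2.52 and 51.9 ± 2.98 CPM in vehicle and 61.3 ± 1.18 and 50.4 ± 2.39 CPM in vehicle with crush libraries (SD, n = 3), and neither passed there; Nrp1 passed under IPA at -0.15 ± 0.05 (adjusted p 0.0161), a call lost without replicate 1 of IPA or replicate 1 or 2 of IPA with crush.

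**Figure D3:**
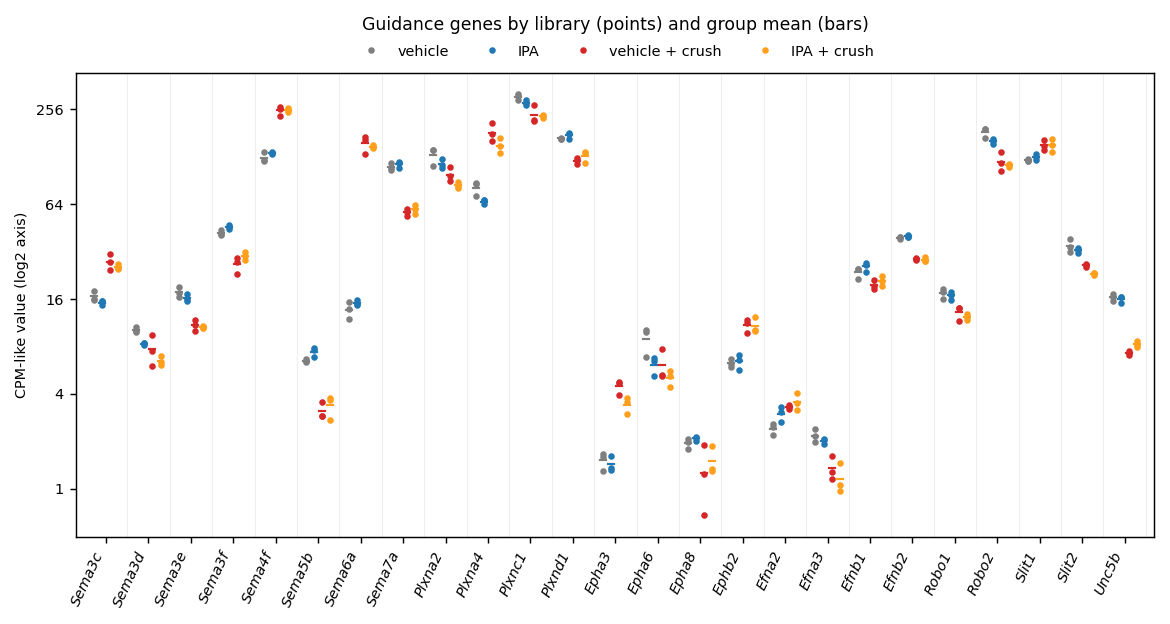
Level (CPM, log2 axis) in each of the 12 libraries of the 25 members named by the size of their change after crush, with points for libraries and short bars for the means of 3. Sema6a rises from 11.9 to 15.3 CPM in vehicle libraries to 134 to 172 CPM after crush, while Sema7a and Unc5b fall in every injured library.

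Eph receptors changed in both directions, and the sign differed between members of the same class. Of 13 tested, 3 rose and 5 fell under vehicle (23.1% and 38.5%, against 23.6% and 24.4% of all tested genes), and 3 rose and 3 fell under IPA (23.1% each, near the 21.2% and 22.5% of all tested genes). Epha3 (chr16:63543534-63864175), a receptor of A-type ephrins, had 1.60, 1.67 and 1.29 CPM in vehicle and 4.73, 4.68 and 3.95 CPM in vehicle with crush libraries. Its levels were 1.36, 1.62 and 1.31 CPM in IPA and 2.97, 3.53 and 3.76 CPM in IPA with crush libraries. Every injured library was above every uninjured one, with changes of 1.30 ± 0.11 (adjusted p 6.24e-07) and 1.02 ± 0.11 (adjusted p 7.02e-06) on 78 to 283 reads per library. Ephb2, a receptor of B-type ephrins, went from 6.22, 5.92 and 6.70 CPM to 9.69, 11.9 and 11.3 CPM under vehicle and from 6.59, 7.07 and 5.68 CPM to 12.3, 10.0 and 10.2 CPM under IPA. These groups did not overlap either, and the changes were 0.75 ± 0.10 (adjusted p 4.45e-05) and 0.71 ± 0.10. Epha5 passed at the small changes of 0.21 ± 0.07 and 0.18 ± 0.07, and the first call was lost without replicate 1 or 3 of vehicle or of vehicle with crush. The second call was lost with a pseudocount of 1, with no limit on low values, with the replicate block, without any replicate of vehicle or of IPA, and without replicate 3 of vehicle with crush or replicate 2 or 3 of IPA with crush.

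Falls were called in 5 Eph receptors under vehicle, and not all of these calls were stable. Epha7 fell by 0.44 ± 0.09 and 0.35 ± 0.09, Epha10 by 0.34 ± 0.10 and 0.45 ± 0.10, and Epha4, which binds ephrins of both types, by 0.32 ± 0.09 and 0.59 ± 0.09. The call of Epha10 under vehicle was lost without replicate 1 of vehicle or of vehicle with crush. Epha6 had 9.83, 10.2 and 6.83 CPM in vehicle and 7.74, 5.16 and 5.29 CPM in vehicle with crush libraries, and 6.48, 5.16 and 6.73 CPM in IPA and 4.43, 5.16 and 5.62 CPM in IPA with crush libraries. The groups overlapped under vehicle, since replicate 3 of vehicle lay below replicate 1 of vehicle with crush. Its change of -0.53 ± 0.17 (adjusted p 0.0179) passed but was lost without replicate 1 or 2 of vehicle or replicate 2 or 3 of vehicle with crush (adjusted p 0.0723 to 0.0816). Epha8 had 1.98, 2.07 and 1.79 CPM in vehicle and 0.676, 1.23 and 1.88 CPM in vehicle with crush libraries, and 2.02, 2.13 and 2.11 CPM in IPA and 1.34, 1.87 and 1.29 CPM in IPA with crush libraries. The groups overlapped under vehicle and were apart under IPA. Replicate 1 of vehicle with crush was the lowest of all, and without it the change of -0.53 ± 0.19 (adjusted p 0.0370) became -0.27 ± 0.15 (adjusted p 0.147). The call of Epha8 was also lost without any replicate of vehicle or without replicate 2 of vehicle with crush, and by edgeR and DESeq2 (adjusted p 0.0864 and 0.0598). Ephb1, Ephb3, Ephb4, Ephb6 and Epha2 did not pass with all libraries.

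Ephrins, the ligands of these receptors, gave 2 rises and 3 falls of 8 tested under vehicle (against 23.6% and 24.4% of all tested genes). Efnb2 (chr8:8617434-8661242), a transmembrane ligand of EphB receptors and of Epha4, had 38.5, 39.7 and 39.7 CPM in vehicle and 29.0, 28.4 and 28.6 CPM in vehicle with crush libraries. Its levels were 41.0, 39.6 and 39.5 CPM in IPA and 29.5, 28.1 and 27.9 CPM in IPA with crush libraries. Libraries of a group lay very close together and the groups did not overlap, and Efnb2 fell by 0.45 ± 0.05 (adjusted p 2.28e-06) and by 0.48 ± 0.05 (adjusted p 1.21e-06) with the smallest standard error among the named members. Efnb1, on the X chromosome, went from 24.8, 21.4 and 24.9 CPM to 18.7, 21.0 and 19.3 CPM under vehicle and from 26.3, 27.3 and 23.8 CPM to 22.5, 20.9 and 19.2 CPM under IPA. It fell by 0.26 ± 0.08 (adjusted p 0.0145) and by 0.30 ± 0.08, and the first call was lost without replicate 1 or 3 of vehicle (adjusted p 0.0623 and 0.0529). Efnb3 did not pass, at -0.23 ± 0.12.

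The A-type ephrins were mixed. Efna3 went from 2.16, 2.39 and 1.97 CPM to 1.61, 1.27 and 1.16 CPM under vehicle and from 2.03, 1.92 and 2.06 CPM to 1.06, 1.46 and 0.964 CPM under IPA. It fell by 0.54 ± 0.13 (adjusted p 0.00289) and by 0.60 ± 0.13 with no overlap, and 14.1% of its exon bases are shared with an antisense gene. Efna2 went from 2.18, 2.45 and 2.56 CPM to 3.28, 3.38 and 3.21 CPM under vehicle, with no overlap, and from 3.07, 3.29 and 2.63 CPM to 4.07, 3.50 and 3.15 CPM under IPA, where the groups overlapped. Efna2 rose by 0.39 ± 0.10 under vehicle (adjusted p 0.00704) and had a change of 0.22 ± 0.10 under IPA (adjusted p 0.109); the difference between these, -0.17 ± 0.15, did not pass (adjusted p 1.00). Of the exon bases of Efna4, 10.5% are shared with an antisense gene. Efna4, at 14 to 57 reads per library, rose from a mean of 0.256 ± 0.0209 to 0.549 ± 0.0523 CPM (SD, n = 3) under vehicle. Since it reached the limit for testing through the libraries where it is high, this call lends no support to the count of risers. Its call under IPA was lost without any replicate of IPA, without replicate 1 or 2 of IPA with crush and after removal of the GC and length trend. The other 2, Efna1 and Efna5, had changes of 0.09 ± 0.06 and -0.16 ± 0.09 under vehicle and did not pass there.

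Robo2 and Robo1 both fell, and the Slits split. Robo2 (chr16:73891839-74411825) had 192, 191 and 170 CPM in vehicle and 137, 104 and 117 CPM in vehicle with crush libraries, and 166, 155 and 160 CPM in IPA and 111, 114 and 115 CPM in IPA with crush libraries. All injured libraries lay below all uninjured ones, and Robo2 fell by 0.63 ± 0.08 under vehicle (adjusted p 1.94e-05) and by 0.50 ± 0.08 under IPA (adjusted p 0.000181). Robo1 went from 18.6, 17.6 and 16.1 CPM to 14.0, 11.5 and 14.1 CPM under vehicle and from 17.0, 15.9 and 17.7 CPM to 12.9, 11.8 and 12.3 CPM under IPA. Its falls of 0.39 ± 0.08 (adjusted p 0.00156) and 0.43 ± 0.08 were smaller, without overlap. Robo4, which vessels express, did not pass, at 0.10 ± 0.13.

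Among the secreted Slit ligands, Slit1 had 121, 124 and 120 CPM in vehicle and 140, 150 and 164 CPM in vehicle with crush libraries, and 133, 127 and 123 CPM in IPA and 165, 153 and 138 CPM in IPA with crush libraries. Slit1 rose by 0.31 ± 0.07 (adjusted p 0.00161) and 0.25 ± 0.07 (adjusted p 0.00829), with groups that were apart under each treatment. Slit2 went from 34.1, 38.3 and 31.8 CPM to 26.2, 26.6 and 25.6 CPM under vehicle and from 33.7, 32.8 and 31.5 CPM to 23.5, 23.5 and 22.7 CPM under IPA. It fell by 0.40 ± 0.06 (adjusted p 0.000136) and by 0.48 ± 0.06 (adjusted p 2.93e-05), also without overlap. Slit3 fell by 0.29 ± 0.10 under vehicle (adjusted p 0.0238), a call lost without replicate 1 or 2 of vehicle or replicate 3 of vehicle with crush. Slit3 was also not called with no limit on low values or with the GC and length trend removed. Under IPA its change was -0.12 ± 0.10, and the difference between treatments did not pass (adjusted p 1.00).

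Of the netrins and their receptors, 1 of 8 tested genes passed under vehicle (12.5%, against 48.0% of all tested genes). Unc5b (chr10:60762593-60831581), a netrin receptor of repulsion that neurons and vessels express, had 16.6, 15.6 and 17.1 CPM in vehicle and 7.32, 7.04 and 7.45 CPM in vehicle with crush libraries. Its levels were 15.0, 16.5 and 16.4 CPM in IPA and 8.16, 7.91 and 8.69 CPM in IPA with crush libraries. Every injured library lay below every uninjured one, and the mean level under vehicle fell to 0.442 times its uninjured value. Unc5b fell by 1.12 ± 0.07 under vehicle (adjusted p 1.08e-08) and by 0.91 ± 0.07 under IPA (adjusted p 1.06e-07). Unc5a, Unc5c and Unc5d had changes of -0.20 ± 0.09, 0.04 ± 0.07 and -0.11 ± 0.11 under vehicle and did not pass. After removal of the GC and length trend, Unc5a was called lower and Unc5c higher under vehicle. With all libraries, the 4 netrins did not pass under either treatment. Ntn1 had 11.7 ± 1.55 CPM in vehicle and 14.0 ± 2.23 CPM in vehicle with crush libraries (SD, n = 3). Ntn4 had 6.98 ± 0.577 and 7.59 ± 0.578 CPM. Without replicate 1 of vehicle with crush, Ntn1 was called higher under vehicle.

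Changes after crush under vehicle and under IPA were close across members. Over the 65 tested members the 2 sets of changes, which share no library, had a Pearson r of 0.984 and a Spearman rho of 0.950, and r was 0.970 without Sema6a; this is a description across genes, which are not independent replicates. Epha6, Epha8, Efna2 and Slit3 passed under vehicle only, and Nrp1, Efna5 and Unc5a under IPA only, each with the same sign under the other treatment. Several of these calls hung on the processing. That of Efna5 was lost with no limit on low values, under both other scalings, with the GC and length trend removed, by edgeR and DESeq2, and without any replicate of IPA or replicate 2 or 3 of IPA with crush. That of Unc5a was lost with no limit, under both other scalings, with the replicate block, by edgeR, and without any replicate of IPA or replicate 3 of IPA with crush, and Unc5a passed under vehicle with the GC and length trend removed or without replicate 3 of IPA with crush. Without replicate 1 of vehicle with crush, Epha8 passed under IPA (adjusted p 0.0285) and not under vehicle (adjusted p 0.147). Efna2 also passed under IPA without replicate 3 of IPA with crush, and Nrp1 also passed under vehicle by DESeq2. The change after crush differed between treatments for 0 of 65 members by edgeR and DESeq2 on the recovered reads. In this comparison DESeq2 called 0 of all tested genes higher and 3 lower. By the interaction test of limma, 0 members were called (0.00% of all tested genes, smallest adjusted p of a member 1.00). At an unadjusted p under 0.05 there were 3 members, against 2.10% of all tested genes. These were Ntn1 (-0.44 ± 0.19, adjusted p 1.00), Unc5b (0.21 ± 0.09, adjusted p 1.00) and Epha4 (-0.27 ± 0.12, adjusted p 1.00). Ntn1 had 10.5, 11.2 and 13.4 CPM in vehicle, 11.8, 16.2 and 13.9 CPM in vehicle with crush, 13.3, 14.4 and 10.4 CPM in IPA and 9.91, 11.2 and 11.8 CPM in IPA with crush libraries. Its groups overlapped in both comparisons. Next by p was Epha3 (-0.27 ± 0.16, adjusted p 1.00), whose rise was 1.30 ± 0.11 under vehicle and 1.02 ± 0.11 under IPA. The count at an unadjusted p rested on single libraries: it was 10 without replicate 1 of vehicle with crush and 0 without replicate 1 of vehicle, replicate 1 of IPA, replicate 2 of vehicle with crush or replicate 1 of IPA with crush.

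IPA did not move any member past the threshold. Without injury, 0 of 65 members passed by limma, edgeR or DESeq2. Of all tested genes, DESeq2 called 1 higher and 2 lower, and limma called 0.00%. By limma, 10 members had an unadjusted p under 0.05, 5 higher and 5 lower, against 12.2% of all tested genes. The smallest adjusted p of a member was 0.408. The 4 with the smallest p were Epha7, Epha6, Epha10 and Plxna4. Epha7, an ephrin-A receptor, had 4.93, 5.75 and 5.34 CPM in vehicle and 4.30, 3.82 and 4.64 CPM in IPA libraries, a change of -0.30 ± 0.09 (adjusted p 0.408). Epha6 had a change of -0.50 ± 0.17 (adjusted p 0.408), with its vehicle libraries spread from 6.83 to 10.2 CPM around the levels given above. Epha10, which lacks kinase activity, had 5.28, 4.76 and 5.15 CPM in vehicle and 6.08, 6.40 and 6.65 CPM in IPA libraries, a change of 0.31 ± 0.10 (adjusted p 0.408). Plxna4 had a change of -0.29 ± 0.10 (adjusted p 0.408). In all 4 the vehicle and IPA libraries did not overlap. The same held for 17 of the 65 members (against 25.2% of all tested genes), 9 of them higher (against 12.7%) and 8 lower (against 12.5%). The count at an unadjusted p was 4 without replicate 2 of IPA, 6 without replicate 1 or without replicate 2 of vehicle, and 19 without replicate 3 of vehicle or without replicate 1 of vehicle with crush.

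After crush, 0 of 65 members passed by limma, edgeR or DESeq2. Of all tested genes, DESeq2 called 9 higher and 6 lower, and limma called 0.00%. By limma, 13 members had an unadjusted p under 0.05, 3 higher and 10 lower under IPA, against 8.06% of all tested genes. The smallest adjusted p of a member was 0.578. The 4 with the smallest p all had negative changes. Unc5c, a netrin receptor, had 20.7, 17.9 and 18.7 CPM in vehicle with crush and 16.6, 16.5 and 16.0 CPM in IPA with crush libraries, a change of -0.21 ± 0.07 (adjusted p 0.578). Epha3 differed by -0.34 ± 0.11 (adjusted p 0.578), Plxna4 by -0.27 ± 0.10 (adjusted p 0.581) and Epha4 by -0.24 ± 0.09 (adjusted p 0.581). Epha4 had 3.26, 3.07 and 3.15 CPM in vehicle with crush and 2.37, 2.83 and 2.64 CPM in IPA with crush libraries. The groups were apart in Unc5c, Epha3 and Epha4 and overlapped in Plxna4, whose highest library was replicate 1 of vehicle with crush; without it the difference of Plxna4 was -0.17 ± 0.09. In all, 10 members did not overlap (against 11.4% of all tested genes), 4 of them higher (against 5.86%) and 6 lower (against 5.58%) with IPA. The count at an unadjusted p was 8 without replicate 1 of vehicle with crush, 7 without replicate 1 of IPA with crush and 18 without replicate 2 of vehicle with crush. Plxna4 was among the 4 in both states, with changes of -0.29 ± 0.10 without injury and -0.27 ± 0.10 after crush that did not pass.

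Differences with IPA moved with the base composition of the transcripts. Across 64 tested members with an annotated transcript, the change with IPA correlated with transcript GC content at a Pearson r of 0.670 without injury and 0.667 after crush. All 15277 tested genes with an annotation had an r of 0.519 and 0.386. The members come from the same libraries, so these are descriptions. Of the genes named for IPA, Epha7, Epha3, Unc5c, Epha4, Epha6 and Plxna4 have GC contents of 41.7%, 41.9%, 44.3%, 45.6%, 48.0% and 51.6% and had the negative changes with IPA given above, while Epha10 has 59.5% and a positive one. With each library's linear trend on GC content and length removed, r was 0.256 and 0.391, 0 members passed, and the changes were -0.18 for Epha7, -0.48 for Epha6, 0.22 for Epha10 and -0.25 for Plxna4 without injury, and -0.14 for Unc5c and -0.27 for Epha3 after crush. Over all alternatives, this one included, the changes with IPA after crush were -0.35 to -0.17 for Plxna4 and -0.29 to -0.18 for Epha4. The change after crush had an r with GC content of -0.08 under vehicle. The part of base composition in these differences was not tested further.

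**Figure D4:**
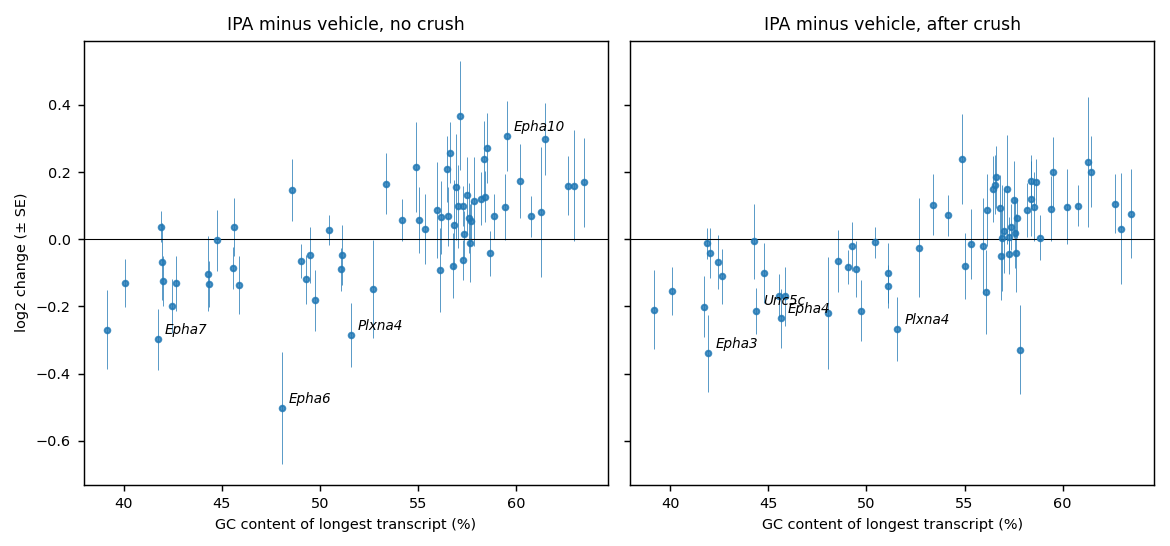
Change with IPA (log2, ± SE) of 64 members against the GC content of their longest transcript (percent), without crush (left) and after crush (right); the 4 members with the smallest p in each are named. Members rich in GC lie higher in both panels, with a Pearson r of 0.670 and 0.667, and 0 members passed.

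Transcripts of genes whose proteins carry guidance signals inside the cell changed in about equal numbers each way. Of 62 such genes, all tested, 23 rose and 23 fell after crush under vehicle (37.1% each, against 23.6% and 24.4% of all tested genes), with a median change of 0.04. Under IPA 25 rose and 21 fell (40.3% and 33.9%, against 21.2% and 22.5%). The list was chosen with earlier results of these data known, so its shares describe only the listed genes. Rnd1, which binds plexins, had 1.54, 1.31 and 1.34 CPM in vehicle and 4.57, 5.75 and 5.40 CPM in vehicle with crush libraries, a change of 1.59 ± 0.10 (adjusted p 2.27e-08). Crmp1, a mediator of the semaphorin collapse response, had 125, 120 and 136 CPM and 236, 261 and 279 CPM, a change of 1.03 ± 0.06 (adjusted p 1.63e-08). Fes, a tyrosine kinase linked to plexins, rose by 0.78 ± 0.16, and the adaptor Grb10 by 0.67 ± 0.05. Under IPA the changes of these 4 were 1.47 ± 0.10, 0.92 ± 0.06, 0.75 ± 0.16 and 0.55 ± 0.05.

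A list of 41 further cues and receptors, 40 of them tested, gave 10 rises and 15 falls under vehicle (of all tested genes, 23.6% rose and 24.4% fell), with a median change of -0.12. Under IPA there were 9 rises and 14 falls (22.5% and 35.0%, against 21.2% and 22.5%). This list too was chosen with earlier results of these data known, so its shares describe only the listed genes. Flrt3, a membrane protein that binds Unc5 receptors and Robo1, had 13.2, 11.9 and 11.2 CPM in vehicle and 132, 124 and 132 CPM in vehicle with crush libraries, a change of 3.37 ± 0.07 (adjusted p 3.42e-13). The size is close to that of Sema6a. Draxin, a secreted protein that binds netrin 1 and Dcc, had 3.10, 2.71 and 2.90 CPM and 16.9, 15.6 and 16.5 CPM, a change of 2.31 ± 0.09 (adjusted p 1.32e-10). Chl1, an L1-family adhesion molecule, had 63.6, 63.5 and 59.1 CPM and 240, 197 and 203 CPM, a change of 1.77 ± 0.07 (adjusted p 1.90e-10). Wnt4 rose by 1.07 ± 0.21, and Omg, a myelin-associated inhibitor of axon growth, fell by 1.27 ± 0.09. Under IPA these 5 had changes of 3.23 ± 0.07, 2.22 ± 0.09, 1.79 ± 0.07, 0.75 ± 0.21 and -1.13 ± 0.09.

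Among the cell marker lists, only those of macrophages and proliferation rose in every gene after crush under vehicle. For comparison, 23.6% of all tested genes rose and 24.4% fell under vehicle, and 21.2% rose and 22.5% fell under IPA. The summed level of 12 macrophage markers was 49.1 to 63.1 CPM in vehicle and 176 to 194 CPM in vehicle with crush libraries, and 12 of 12 rose. All 8 proliferation markers rose, from 9.48 to 13.2 CPM to 34.2 to 36.0 CPM. The 14 neuron markers, which identify the tissue, summed to 22018 to 23409 CPM and to 20873 to 22136 CPM, with 3 that rose and 9 that fell. For 10 satellite glia markers the sums were 2579 to 3097 CPM and 2806 to 3279 CPM, and for 10 Schwann cell markers 5293 to 5983 CPM and 5113 to 5770 CPM; 1 and 2 of them rose and 1 and 0 fell. Those of 12 endothelial and pericyte markers were 246 to 258 CPM and 219 to 241 CPM, and those of 10 fibroblast and meningeal markers 836 to 978 CPM and 1039 to 1139 CPM; 2 and 4 of them rose and 2 and 0 fell. The 8 neutrophil markers summed to 13.8 to 47.0 CPM and 38.2 to 67.2 CPM, and 1 rose; under IPA the sums were 16.5 to 31.2 CPM and 30.1 to 119 CPM, and 4 rose. Under IPA the fibroblast sums were 839 to 1037 CPM and 943 to 1073 CPM, with 3 that rose and 1 that fell and a median change of -0.09, against 0.26 under vehicle. The 10 skeletal muscle markers, a sign of tissue around the ganglion, ranged from 87.5 to 136 CPM in vehicle and from 109 to 348 CPM in vehicle with crush libraries, and 0 of them passed (3 had an unadjusted p under 0.05). In IPA and IPA with crush libraries the muscle sums were 42.3 to 99.9 CPM and 56.9 to 347 CPM, and those of macrophage markers 48.1 to 72.1 CPM and 173 to 200 CPM. Of the 12 macrophage markers, 11 were called higher after crush under IPA, and all 12 changes were above 0. No marker of these lists passed for IPA without injury or after crush. None of these markers was at 0 in all libraries of a group. The part of these cells in the changes of the guidance genes was not tested.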

How the data were processed

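Total RNA of pooled mouse DRG was read as poly(A)-selected, directional libraries, paired reads of 75 bases, 3 libraries in each of 4 groups. Per the submitters' processing notes, mm10, STAR 2.7.0, edgeR 3.24.3, limma 3.38.3 and R 3.5.0 were used; annotation and strand setting of the counting: not given in the sources used here. Although the authors deposited the table as FPKM by its name, its values are CPM-like: 100.0% of the values in each library are whole multiples of the value of 1 read (tolerance 1e-06), the same for every gene, giving 40938034 to 62501969 recovered reads per library. The deposited CPM values, called levels in the text, were tested on the log2(value + 0.5) scale, which understates changes of low genes, with limma 3.58.1 in R 4.3.3 (trended variance, 4 group means over all 12 libraries). Genes with at least 0.5 in at least 3 libraries were kept (15603 of 44345) and p-values were adjusted by Benjamini-Hochberg over all of them. A call is an adjusted p under 0.05. P-values measure the spread between pools of 2 mice.

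Lengths, GC content and coordinates came from GENCODE M21 on GRCm38. Shown library by library are up to 4 passing members of each role group with the largest change after crush under vehicle and a mean of at least 1, every passing member with a change of at least 0.8 after crush, and the 4 members with the smallest p in each IPA comparison; up to 5 genes stand for each further guidance list by the same kind of rule, and 1 that the rule picked is not reported here. Every gene that matched the name pattern was a member. The lists and rules were chosen with earlier results of these data known. Alternatives were other pseudocounts, filters and scalings, the replicate number as a block, removal of a GC and length trend, edgeR 4.0.16 and DESeq2 1.42.0 on the recovered reads, fits restricted to the 6 libraries of a contrast, and leaving out single libraries. Only the main limma fit was tested on simulated data, for the change after crush under vehicle. Members with exon bases shared with another gene (17 members) may hold reads of their partner. The partner lies on the same strand for Nrp1, Plxnc1 and Sema4a and on the opposite strand for the rest.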

Additional observations from a re-analysis of the deposited data

How the results depend on the processing

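All counts of called members stayed within 1.5 times the reported ones under every alternative, and 0 results reversed. After crush under vehicle, 11 to 18 members rose and 17 to 23 fell when single libraries were left out, and 12 to 15 rose and 19 to 23 fell under the other alternatives; under IPA the ranges were 8 to 12 and 17 to 25, and 11 to 12 and 18 to 25. The calls over all 15603 tested genes moved too when single libraries were left out. Under vehicle 3080 to 4080 genes rose and 3219 to 4240 fell, and under IPA 2738 to 3648 rose and 2868 to 3981 fell. Of the values of members named for their change after crush, 1174 kept direction and side of the threshold, 23 lost the call and 3 gained it, in Sema3d, Epha6, Epha8, Efnb1 and Efna2. The 284 values of members named in the IPA and interaction comparisons all kept direction and side. Members called in the IPA and interaction comparisons numbered 0 throughout. Replicate numbers did not pair the samples (correlation of same-numbered deviations from -0.252 to 0.286). With the replicate number as a block, 13 rose and 22 fell under vehicle, and 11 rose and 21 fell under IPA, where Epha5 and Unc5a lost their calls. Of all 15603 tested genes, 3549 rose and 3661 fell under vehicle in that fit, and 3156 rose and 3359 fell under IPA. Other scalings shifted the median gene by under 0.02 on the log2 scale. Depth limits Sema3a, Robo3, Dcc, Epha1 and Efna4, with as few as 3 to 14 reads in a library.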
